A study of Mus musculus with 12 samples.

Results

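The 8 complement genes described here were followed through spinal cord RNA of mice that carried human SOD1-G93A, lacked Plekhg5, or both, and of controls with neither. They are C1qa, C1qb, C1qc, C3, C4b, C3ar1, C5ar1 and Serping1, chosen by gene symbol, and all 8 were found among the 45906 genes of the count table and passed the filter on low counts, as did 20155 genes in all. RNA came from whole spinal cord of 12 mice aged 7 months, 3 of each genotype: Plekhg5+/+, Plekhg5-/-, Plekhg5+/+ SOD1-G93A and Plekhg5-/- SOD1-G93A. SOD1-G93A is a human SOD1 transgene with an amyotrophic lateral sclerosis mutation, here in the low-copy line, and Plekhg5 encodes a guanine exchange factor that the study links to SOD1 secretion from motoneurons. Every strain was on a C57BL/6 background, and sex was not a factor of the design. The comparisons ask which complement transcripts differ with SOD1-G93A, with loss of Plekhg5, and whether the SOD1-G93A difference depends on Plekhg5.

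Complement is a cascade of plasma and tissue proteins that tags targets and recruits phagocytes. In the classical pathway C1q, a complex of the A, B and C chains, binds its target and activates proteases that cleave C4 and C2, whose fragments form the enzyme that cleaves C3. The small fragments C3a and C5a act on the receptors C3aR1 and C5aR1, and the C1 inhibitor encoded by Serping1 restrains the first proteases. In the central nervous system microglia are the main source of C1q, astrocytes make C3 and C4 in reactive states, and complement takes part in synapse removal by microglia.

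Libraries held 30415643 to 38743628 counts. Plekhg5 had 22.9 ± 3.08 CPM (counts scaled to a common library size; SD, n = 3) in Plekhg5+/+, 3.98 ± 0.712 in Plekhg5-/-, 22.4 ± 2.19 in Plekhg5+/+ SOD1-G93A and 4.26 ± 0.413 in Plekhg5-/- SOD1-G93A mice, as the labels state. Human SOD1 had 0.153 to 5.47 CPM in the 6 libraries without the transgene and 4421 or more in the 6 with it. Library 1 of the Plekhg5+/+ SOD1-G93A mice stood apart: it had the lowest human SOD1 of its genotype at 4421 CPM, and the highest value of all 12 libraries in 7 of the 8 complement genes. Log2 fold changes, ratios and shares of the 8 genes that rest on this genotype are therefore also given without that library. Counts of genes under a threshold, class medians, marker lists and values of other genes include that library unless stated otherwise. Y-linked transcripts were present in 3, 2, 2 and 1 of the 3 libraries of the genotypes in the order above. The lists of cell type markers, 8 in number, were all detected, and no marker was at 3 counts or fewer in all libraries. In RNA of whole tissue, fewer cells of a type and less RNA per cell cannot be told apart.

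The C1q chains rose in Plekhg5+/+ SOD1-G93A against Plekhg5+/+ mice, about 2.57 to 2.98-fold, and stood at 0.498 to 0.510 of that level in Plekhg5-/- SOD1-G93A mice, a difference that did not pass the adjusted test. C1qa, C1qb and C1qc lie side by side within 18719 bases on the minus strand of chromosome 4 (GRCm38.p6), at 136895916 to 136898844, 136880126 to 136886200 and 136889801 to 136892936, and 15.2 Mb from Plekhg5 on the same chromosome. C1qa had 64.9, 49.8 and 63.9 CPM in the Plekhg5+/+ libraries, 81.5, 75.3 and 57.9 in Plekhg5-/-, 283, 121 and 128 in Plekhg5+/+ SOD1-G93A, and 93.7, 94.2 and 83.6 in Plekhg5-/- SOD1-G93A. All 3 Plekhg5+/+ SOD1-G93A libraries thus lay above the other 9, and library 1 had 4.76 times the Plekhg5+/+ mean against 2.03 and 2.15 times in libraries 2 and 3. C1qb had 66.6, 50.5 and 62.7 CPM in Plekhg5+/+, 76.4, 71.2 and 51.2 in Plekhg5-/-, 238, 106 and 118 in Plekhg5+/+ SOD1-G93A, and 80.4, 80.4 and 74.8 in Plekhg5-/- SOD1-G93A. C1qc had 56.8, 48.9 and 54.7 CPM in Plekhg5+/+, 74.6, 62.3 and 49.2 in Plekhg5-/-, 235, 105 and 111 in Plekhg5+/+ SOD1-G93A, and 79.2, 75.5 and 70.1 in Plekhg5-/- SOD1-G93A. Both chains had the order of C1qa, with Plekhg5+/+ SOD1-G93A highest and the Plekhg5-/- range overlapping that of Plekhg5+/+. Per length the chains were close to each other in Plekhg5+/+ mice, at 55.0 ± 7.81, 54.3 ± 7.60 and 47.4 ± 3.63 RPKM (CPM per kilobase of exon; SD, n = 3).

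In edgeR's quasi-likelihood test over 20155 genes, with p-values adjusted by Benjamini-Hochberg, the log2 fold changes between Plekhg5+/+ SOD1-G93A and Plekhg5+/+ mice were 1.57 for C1qa (SE 0.291, adjusted p = 0.0243), 1.36 for C1qb (SE 0.275, adjusted p = 0.0323) and 1.49 for C1qc (SE 0.275, adjusted p = 0.0234). Without library 1 they were 1.06, 0.90 and 1.01, and all passed the test. Without Plekhg5+/+ library 1 or 2 none passed it, with log2 fold changes of 1.25 to 1.64 and adjusted p-values of 0.0902 to 0.154 (edgeR).

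The start regions of C1qb and C1qc are shown with those of C3ar1 and C3, since these 4 genes rose together in Plekhg5+/+ SOD1-G93A mice and RefSeq (GRCm38.p6) start regions were at hand for them. Each run reads 5' to 3' along the gene, from 250 bases before to 50 after the transcript start. Capitals mark AGGAAG on either strand (CTTCCT on the other), a core of the sites of PU.1, the transcription factor of macrophages and microglia, and of other ETS factors.
C1qb promoter, chr4:136886151-136886450, minus strand: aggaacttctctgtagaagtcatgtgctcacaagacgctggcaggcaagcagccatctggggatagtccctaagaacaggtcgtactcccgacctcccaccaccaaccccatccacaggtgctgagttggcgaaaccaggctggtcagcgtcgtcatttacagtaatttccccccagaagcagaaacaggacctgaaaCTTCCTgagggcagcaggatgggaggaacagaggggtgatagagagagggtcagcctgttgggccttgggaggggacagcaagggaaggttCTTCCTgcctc
C1qc promoter, chr4:136892865-136893164, minus strand: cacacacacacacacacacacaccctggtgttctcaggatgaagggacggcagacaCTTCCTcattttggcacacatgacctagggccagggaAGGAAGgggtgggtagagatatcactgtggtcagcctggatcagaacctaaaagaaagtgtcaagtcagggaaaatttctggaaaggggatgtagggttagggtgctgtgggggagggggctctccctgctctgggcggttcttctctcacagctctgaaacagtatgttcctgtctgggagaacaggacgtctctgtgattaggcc
C3ar1 promoter, chr6:122856108-122856407, minus strand: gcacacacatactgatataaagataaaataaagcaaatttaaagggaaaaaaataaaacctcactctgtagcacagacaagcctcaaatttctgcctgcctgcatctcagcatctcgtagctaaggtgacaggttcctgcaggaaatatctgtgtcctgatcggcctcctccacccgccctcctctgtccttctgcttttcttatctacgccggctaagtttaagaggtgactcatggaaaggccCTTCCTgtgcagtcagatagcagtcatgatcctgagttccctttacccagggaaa
C3 promoter, chr17:57228087-57228386, minus strand: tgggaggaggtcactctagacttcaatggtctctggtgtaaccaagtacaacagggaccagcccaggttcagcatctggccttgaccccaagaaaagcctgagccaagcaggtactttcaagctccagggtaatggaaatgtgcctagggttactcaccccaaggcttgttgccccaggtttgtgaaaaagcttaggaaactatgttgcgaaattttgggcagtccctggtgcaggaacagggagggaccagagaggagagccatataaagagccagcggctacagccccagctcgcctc

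AGGAAG occurred 2 times in the C1qb window, the first match 52 bases before the start, 2 times in that of C1qc at 194 and 157 bases before, and 1 time in that of C3ar1, 5 bases before. The C3 window held none. The C5ar1 window held 3, and C5ar1 is a gene that did not pass the test. Of the 32851 promoter windows of this length in the table, 35.4% held at least 1 match, so its presence is common. TTGCNNAA, a C/EBP motif, occurred 1 time in the C3 window, 45 bases before the start, and in none of the other 4 windows, against 10.8% of all windows. TTCNNNGAA, a STAT motif (8.3% of all windows), the interferon-stimulated response element (3.44%) and an NF-kB motif (0.411%) were in none of the 5 windows on either strand.

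**Figure D1:**
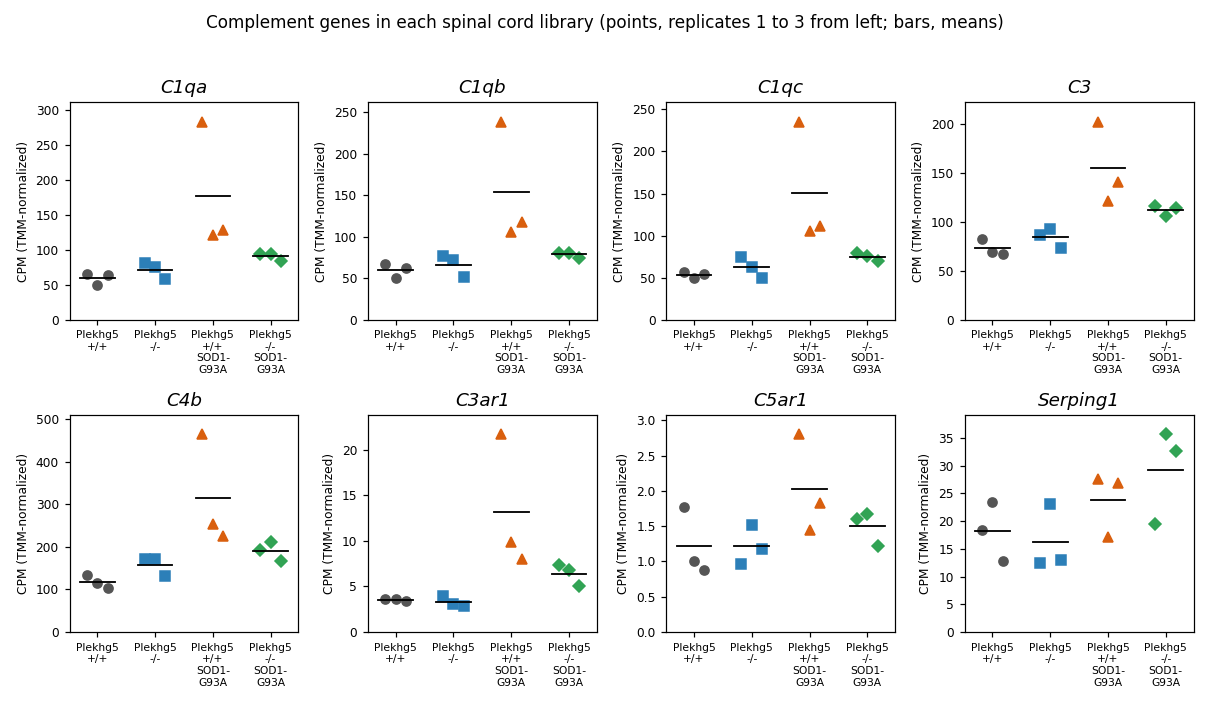
CPM of the 8 complement genes, 1 panel per gene with its own scale from 0, and 1 point per library in order of replicate number from left; bars are means of 3 libraries per genotype. Library 1 of Plekhg5+/+ SOD1-G93A is the highest point in each panel but Serping1, where Plekhg5-/- SOD1-G93A libraries 2 and 3 are highest at 35.6 and 32.6 CPM.

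C3 and C4b, the substrates at the centre of the cascade, also rose in Plekhg5+/+ SOD1-G93A mice, 2.12 and 2.69-fold. C3 (chromosome 17 from 57203967 to 57228136) had 82.7, 69.0 and 66.7 CPM in Plekhg5+/+, 86.9, 92.8 and 73.3 in Plekhg5-/-, 202, 121 and 141 in Plekhg5+/+ SOD1-G93A, and 116, 106 and 114 in Plekhg5-/- SOD1-G93A. The SOD1-G93A genotypes both lay above the mice without the transgene, and their own ranges did not overlap. C4b (chromosome 17 from 34728139 to 34743902) had 133, 114 and 104 CPM in Plekhg5+/+, 172, 172 and 131 in Plekhg5-/-, 464, 253 and 225 in Plekhg5+/+ SOD1-G93A, and 193, 212 and 166 in Plekhg5-/- SOD1-G93A. Plekhg5+/+ SOD1-G93A was again highest, while the ranges of Plekhg5-/- and Plekhg5-/- SOD1-G93A overlapped. The log2 fold changes between Plekhg5+/+ SOD1-G93A and Plekhg5+/+ mice were 1.09 for C3 (SE 0.160, adjusted p = 0.0125, edgeR) and 1.43 for C4b (SE 0.239, adjusted p = 0.0177, edgeR). They were 0.85 and 1.03 without library 1 of Plekhg5+/+ SOD1-G93A, and passed the test. Per length, C4b had 20.8 ± 2.56 RPKM and C3 14.0 ± 1.66 RPKM in Plekhg5+/+ mice, below each C1q chain. C4b shares sequence with C4a, the neighbouring C4 gene, and 23.5% of the stretches of 75 bases, the read length, in the longest C4b transcript were also in a C4a transcript. C4a made up 13.2 to 13.6% of the summed C4a and C4b counts in every library, so the reads of the pair are not told apart with certainty, and their sum gave the same log2 fold change of 1.43.

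Of the receptors of the released fragments, C3ar1 (receptor of C3a) rose and C5ar1 (receptor of C5a) did not pass the test. C3ar1 (chromosome 6 from 122847140 to 122856157) had 3.67, 3.67 and 3.37 CPM in Plekhg5+/+, 3.95, 3.13 and 2.81 in Plekhg5-/-, 21.7, 9.90 and 7.98 in Plekhg5+/+ SOD1-G93A, and 7.31, 6.83 and 5.05 in Plekhg5-/- SOD1-G93A. The 2 genotypes without SOD1-G93A overlapped, and the 2 with it stood above them without overlapping each other. Its log2 fold change of 1.89 (SE 0.317, adjusted p = 0.0152, edgeR) in Plekhg5+/+ SOD1-G93A against Plekhg5+/+ mice was the largest of the 8 genes, and was 1.33 without library 1. C5ar1 (chromosome 7 from 16246743 to 16259540) had 1.77, 1.01 and 0.873 CPM in Plekhg5+/+, 0.966, 1.51 and 1.17 in Plekhg5-/-, 2.80, 1.45 and 1.83 in Plekhg5+/+ SOD1-G93A, and 1.6, 1.67 and 1.22 in Plekhg5-/- SOD1-G93A. These are 28.5 to 90 reads per library, all 4 ranges overlapped, and the log2 fold change of 0.74 had a 95% interval of 0.08 to 1.39 and an adjusted p of 0.217 (edgeR). The log2 fold change of C5ar1 was 0.43 without library 1 of Plekhg5+/+ SOD1-G93A. Per length both receptors were low, with 0.830 ± 0.0401 RPKM for C3ar1 and 0.473 ± 0.188 RPKM for C5ar1 in Plekhg5+/+ mice.

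Serping1, the C1 inhibitor gene (chromosome 2 from 84765360 to 84775444), did not pass the adjusted test in any comparison. It had 18.3, 23.5 and 12.8 CPM in Plekhg5+/+, 12.5, 23.0 and 13 in Plekhg5-/-, 27.6, 17.1 and 26.8 in Plekhg5+/+ SOD1-G93A, and 19.5, 35.6 and 32.6 in Plekhg5-/- SOD1-G93A. The ranges of all 4 genotypes overlapped, with the highest 2 libraries in Plekhg5-/- SOD1-G93A. Its log2 fold change between Plekhg5+/+ SOD1-G93A and Plekhg5+/+ mice was 0.39 (95% interval -0.31 to 1.09, adjusted p = 0.562, edgeR), or 0.27 without library 1 of Plekhg5+/+ SOD1-G93A, and that between Plekhg5-/- SOD1-G93A and Plekhg5-/- mice was 0.85 (0.16 to 1.55, adjusted p = 0.841, edgeR). The summed CPM of 8 leptomeningeal fibroblast markers, such as Dcn and Col1a2, was 183 to 314 in Plekhg5+/+, 156 to 287 in Plekhg5-/-, 198 to 311 in Plekhg5+/+ SOD1-G93A and 273 to 480 in Plekhg5-/- SOD1-G93A. The 2 libraries with the highest Serping1 had the highest sums, 480 and 423, and the 3 with the lowest Serping1 had the lowest, 156, 183 and 175. Library 1 of Plekhg5+/+ SOD1-G93A, with 27.6 CPM of Serping1 at a sum of 198, lay off this order. edgeR called 0 of the 8 fibroblast markers in each comparison, with a median log2 fold change of -0.04 in Plekhg5+/+ SOD1-G93A against Plekhg5+/+ mice and 0.91 in Plekhg5-/- SOD1-G93A against Plekhg5-/- mice, and their part in the Serping1 values was not tested.

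**Figure D2:**
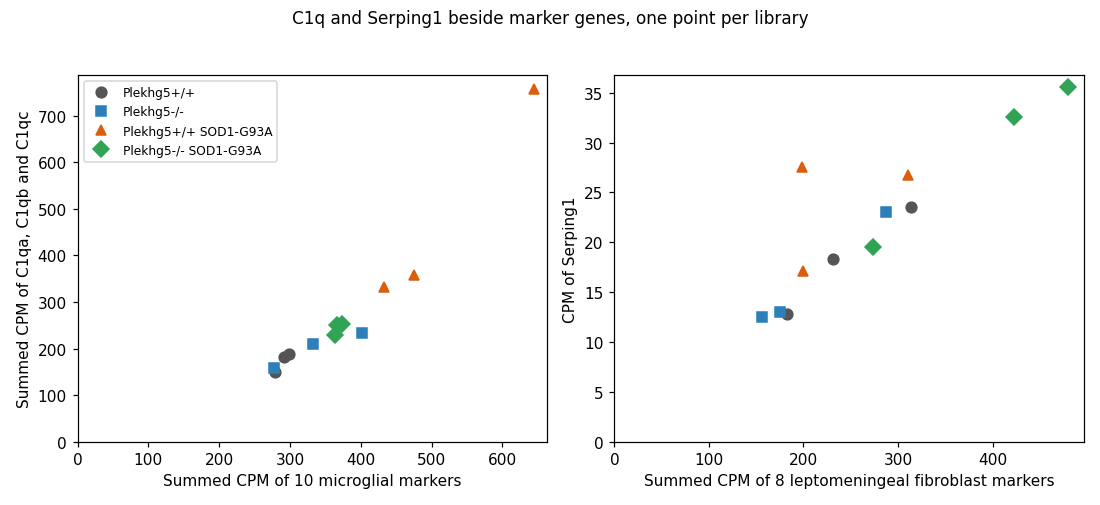
One point per library: left, the summed CPM of C1qa, C1qb and C1qc against the summed CPM of 10 microglial markers; right, CPM of Serping1 against the summed CPM of 8 leptomeningeal fibroblast markers. C1q reaches 757 at a marker sum of 644 in Plekhg5+/+ SOD1-G93A library 1, and Serping1 reaches 35.6 at a sum of 480 in Plekhg5-/- SOD1-G93A library 2.

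In all, 6 of the 8 genes rose in Plekhg5+/+ SOD1-G93A against Plekhg5+/+ mice: the 3 C1q chains, C3, C4b and C3ar1. Over all genes tested the share called was 2.47%. With the unadjusted p under 0.05, 7 of 8 passed against 18.2% of all genes, and in the same 6 genes every Plekhg5+/+ SOD1-G93A library exceeded every Plekhg5+/+ library, against 11.6% of all genes. The median log2 fold change of the 8 was 1.39, against -0.00 over all genes. The 6 calls depended on the Plekhg5+/+ libraries: without library 1 or without library 2 of that genotype 0 of the 8 passed, and the calls over all genes went from 498 to 4 and 2. Without library 3 C1qb alone was lost (adjusted p = 0.0585, edgeR). Fitting only the 2 genotypes compared also left 0 of 8, with 3 calls over all genes, and with no filter on low counts 3 of 8 passed. DESeq2 and limma voom called 6 of 8.

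**Figure D3:**
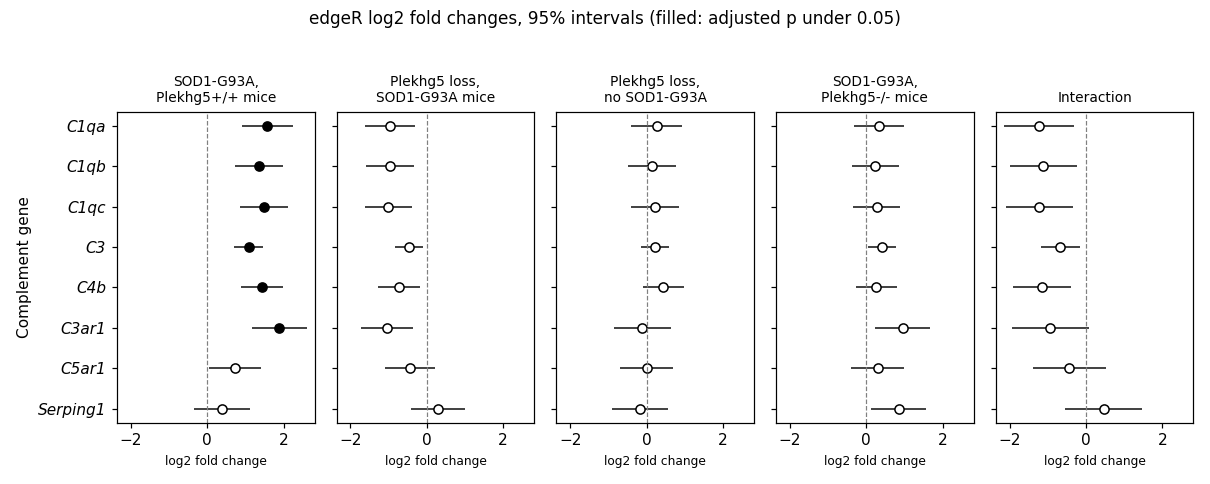
Log2 fold changes of the 8 genes with 95% intervals from edgeR, 1 panel per comparison with a shared axis; filled points have an adjusted p under 0.05. Filled points are seen only in the first panel, from 1.09 for C3 to 1.89 for C3ar1, and the interaction intervals of C1qa, C1qb, C1qc, C3 and C4b lie below 0.

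With SOD1-G93A present, the same 6 genes had lower values in mice without Plekhg5, but none passed the adjusted test. The log2 fold changes of Plekhg5-/- SOD1-G93A against Plekhg5+/+ SOD1-G93A mice were -0.97 for C1qa (SE 0.286), -0.97 for C1qb (SE 0.271), -1.01 for C1qc (SE 0.271), -0.46 for C3 (SE 0.158), -0.72 for C4b (SE 0.235) and -1.05 for C3ar1 (SE 0.303). edgeR called 0 of 8 (adjusted p from 0.402 to 0.771), against 0.0347% of all genes, and 6 of 8 had an unadjusted p under 0.05, against 8.64% of all genes. DESeq2 without a prior and limma voom called 0 of 8, and DESeq2 with a prior on fold changes, the study's tool, called 1, C3ar1 (log2 fold change -0.47, adjusted p = 0.017). In the 6 genes every Plekhg5-/- SOD1-G93A library lay below every Plekhg5+/+ SOD1-G93A library, against 10% of all genes. Without library 1 of Plekhg5+/+ SOD1-G93A the differences shrank to -0.46, -0.51, -0.53, -0.22, -0.33 and -0.48 in the order above. C5ar1 (-0.44, 95% interval -1.08 to 0.20) and Serping1 (0.29, -0.40 to 0.98) overlapped between these genotypes, and were -0.14 and 0.41 without that library. This comparison and the one before share the Plekhg5+/+ SOD1-G93A libraries.

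The interaction, the test of whether the SOD1-G93A difference depends on Plekhg5, gave negative estimates in 7 of the 8 genes and passed in none. It was -1.24 for C1qa (95% interval -2.13 to -0.34), -1.12 for C1qb (-1.97 to -0.27), -1.22 for C1qc (-2.07 to -0.37), -0.68 for C3 (-1.16 to -0.19), -1.16 for C4b (-1.89 to -0.43) and -0.94 for C3ar1 (-1.91 to 0.04), all on the log2 scale. C5ar1 had -0.44 (-1.37 to 0.49) and Serping1 0.46 (-0.52 to 1.45). edgeR called 0 of 8 (adjusted p from 0.403 to 0.728), as did DESeq2 and limma voom, and the share of all genes called by edgeR was 0%. With the unadjusted p, 5 of 8 passed, against 9.05% of all genes. Without library 1 of Plekhg5+/+ SOD1-G93A the C1q estimates were -0.72, -0.66 and -0.74, that of C4b -0.77 and that of C3 -0.44. Those of C3ar1 and C5ar1 were -0.38 and -0.14, and that of Serping1 was 0.58.

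Without SOD1-G93A, none of the 8 genes passed the test for loss of Plekhg5. The ranges overlapped in all 8, in C4b only at 131 against 133 CPM, and the log2 fold changes of Plekhg5-/- against Plekhg5+/+ mice ran from -0.17 for Serping1 to 0.44 for C4b (95% interval -0.08 to 0.96). edgeR, DESeq2 and limma voom called 0 of 8, against 0.0298% of all genes in edgeR, and 0 had an unadjusted p under 0.05, against 5.32%. The intervals of C1qa (-0.37 to 0.90), C1qb (-0.46 to 0.75) and C1qc (-0.39 to 0.82) leave room for differences of either sign. Between Plekhg5-/- SOD1-G93A and Plekhg5-/- mice the log2 fold changes were above 0 in all 8, with a median of 0.32, and edgeR, DESeq2 and limma voom called 0 of 8, against 0.00496% of all genes in edgeR. C3 (0.41, 95% interval 0.06 to 0.75), C3ar1 (0.95, 0.25 to 1.65) and Serping1 had an unadjusted p under 0.05, against 5.38% of all genes. C1qa, C3 and C3ar1 did not overlap between these genotypes and were higher with SOD1-G93A, against 7.26% of all genes.

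Since microglia are the main source of C1q, the chains were set beside 10 microglial markers, among them Csf1r, P2ry12, Tmem119 and Cx3cr1. The summed CPM of the markers was 279 to 299 in Plekhg5+/+, 277 to 402 in Plekhg5-/-, 433 to 644 in Plekhg5+/+ SOD1-G93A and 363 to 373 in Plekhg5-/- SOD1-G93A, and 7 of the 10 rose in Plekhg5+/+ SOD1-G93A against Plekhg5+/+ mice. In Plekhg5-/- SOD1-G93A against Plekhg5+/+ SOD1-G93A mice 0 of the 10 passed, with a median log2 fold change of -0.49. The summed C1q chains were 149 to 188, 158 to 233, 332 to 757 and 228 to 253 CPM in the same order. The log2 ratio of summed C1q to summed markers was -0.751 ± 0.131 in Plekhg5+/+, -0.757 ± 0.0728 in Plekhg5-/-, -0.188 ± 0.365 in Plekhg5+/+ SOD1-G93A and -0.592 ± 0.0644 in Plekhg5-/- SOD1-G93A mice (SD, n = 3). It was 0.56 higher with SOD1-G93A in Plekhg5+/+ mice and 0.40 lower without Plekhg5 in SOD1-G93A mice, and the libraries did not overlap in either comparison. Two-sided exact permutation tests gave p = 0.1 for each, the smallest that 3 against 3 allows. Without library 1 of Plekhg5+/+ SOD1-G93A the differences were 0.35 and -0.19. The ratio was -0.01 apart between Plekhg5-/- and Plekhg5+/+ mice (exact permutation p = 0.9), and 0.16 apart between Plekhg5-/- SOD1-G93A and Plekhg5-/- mice (exact permutation p = 0.1). The markers differed among themselves. Aif1 had 4.32, 2.61 and 4.32 CPM in Plekhg5+/+ and 14, 7.69 and 8.22 in Plekhg5+/+ SOD1-G93A libraries. Tmem119 had 27.4, 21.5 and 19 CPM in Plekhg5+/+ and 29.7, 21.8 and 29.2 in Plekhg5+/+ SOD1-G93A libraries. The size of the ratio therefore depends on which markers are summed, and ratios to single markers were not tested.

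C3ar1, a receptor that microglia express, had the same kind of ratio to the mean log2 level of the markers, 0.94 higher in Plekhg5+/+ SOD1-G93A than in Plekhg5+/+ mice, where C4b was 0.56 and C3 0.26 higher (exact permutation p = 0.1 for each). These were 0.65, 0.38 and 0.19 without library 1 of Plekhg5+/+ SOD1-G93A. C5ar1 was -0.07 apart (exact permutation p = 0.8) and Serping1 -0.39 apart (exact permutation p = 0.3), or -0.19 and -0.38 without that library. With loss of Plekhg5 in SOD1-G93A mice the ratio differed by -0.45 for C3ar1 (exact permutation p = 0.4), -0.19 for C4b (p = 0.5), 0.04 for C3 (p = 0.7), 0.08 for C5ar1 (p = 0.8) and 0.74 for Serping1 (p = 0.2), and by -0.16, -0.01, 0.11, 0.20 and 0.72 without library 1. Between Plekhg5-/- SOD1-G93A and Plekhg5-/- mice C3ar1 was 0.82 higher and C3 0.29 higher (exact permutation p = 0.1 for each), C4b 0.15 (p = 0.4), C5ar1 0.18 (p = 0.5) and Serping1 0.74 (p = 0.2). Between Plekhg5-/- and Plekhg5+/+ mice C3ar1 differed by -0.33 (exact permutation p = 0.1), C4b by 0.23 (p = 0.3), C3 by 0.00 (p = 1), C5ar1 by -0.17 (p = 0.7) and Serping1 by -0.39 (p = 0.5). The astrocyte markers, 10 in number with Gfap and Slc1a2 among them, summed to 7795 to 8073 CPM in Plekhg5+/+, 7736 to 9393 in Plekhg5-/-, 9484 to 12491 in Plekhg5+/+ SOD1-G93A and 8706 to 8999 in Plekhg5-/- SOD1-G93A, and 2 of them rose in Plekhg5+/+ SOD1-G93A against Plekhg5+/+ mice. Neutrophil markers, which bear on C5ar1, summed to 13.6 to 63.5, 27.7 to 73.8, 40.0 to 136 and 20.8 to 234 CPM in the same order, with 0 of 8 called, a median log2 fold change of 1.58 and all 8 above 0 in Plekhg5+/+ SOD1-G93A against Plekhg5+/+ mice. In the remaining lists edgeR called 1 of 8 markers of monocytes and border macrophages higher in Plekhg5+/+ SOD1-G93A than in Plekhg5+/+ mice. In the same comparison it called 1 of 6 of endothelial cells lower, and 0 of neurons and oligodendrocytes. The median log2 fold change of the monocyte and border macrophage markers was -0.16, with 2 of 8 above 0. The part of microglial, astrocyte and neutrophil markers in the values of these genes was not tested.

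The make-up of C1q stayed within a few percentage points. Per base of exon, C1qa was 34.1 to 38.4% of the 3 chains over the 12 libraries, C1qb 31.4 to 35.3% and C1qc 29.2 to 32.1%. Between Plekhg5+/+ SOD1-G93A and Plekhg5+/+ mice the C1qa share was 37.3 ± 0.793% against 35.0 ± 0.949% (SD, n = 3), a difference of 2.23 percentage points, and that of C1qb was 32.1 ± 0.813% against 34.6 ± 0.750%, a difference of -2.46 points. Neither pair overlapped, and both had an exact permutation p of 0.1, the smallest possible. The shares of the 3 chains add up to the whole, so the C1qa and C1qb differences are not separate results. C1qc differed by 0.23 points (exact permutation p = 1). These differences were 1.79, -2.12 and 0.33 points without library 1 of Plekhg5+/+ SOD1-G93A. In Plekhg5-/- against Plekhg5+/+ mice, without the transgene, C1qa differed by 1.55 and C1qb by -1.49 points in the same directions (exact permutation p = 0.2 for each), and in Plekhg5-/- SOD1-G93A against Plekhg5-/- mice by 1.19 and -0.91 points (exact permutation p = 0.2 for each). Among SOD1-G93A mice loss of Plekhg5 moved the shares by 0.51, 0.06 and -0.57 points for C1qa, C1qb and C1qc, with overlapping libraries (exact permutation p = 0.4, 1 and 0.3), or by 0.95, -0.28 and -0.67 points without library 1.

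**Figure D4:**
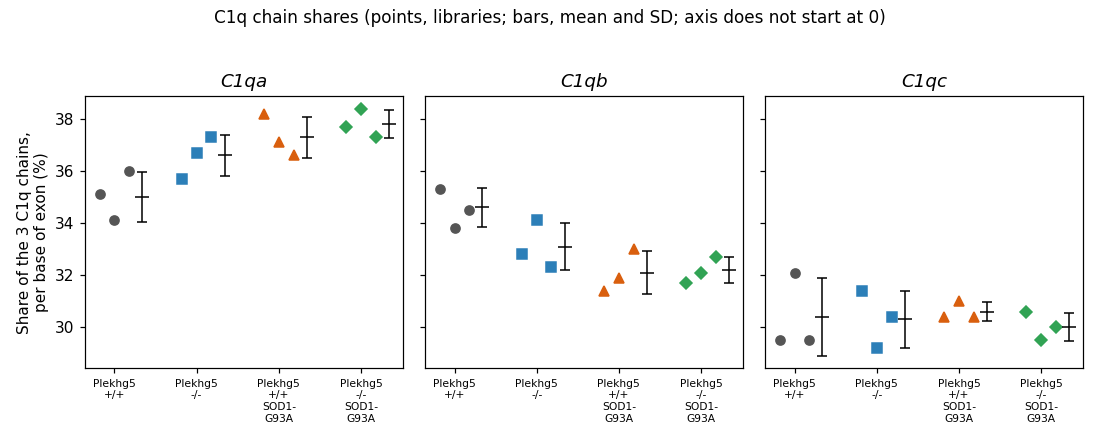
Share of each C1q chain in the sum of the 3 chains per base of exon (percent, axis not from 0), 1 point per library and mean with SD beside each genotype. C1qa lies at 34.1 to 36.0% in Plekhg5+/+ and 36.6 to 38.2% in Plekhg5+/+ SOD1-G93A, and C1qb runs the other way.

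The other genes of the pathway were taken from a list of 46, of which 36 passed the filter. Mbl1, Mbl2, Colec10, C6, C7, C8a, C8b, C9, Vsig4 and C4bp, recognition molecules of the lectin pathway, parts of the membrane attack complex, a macrophage receptor and a C4 binding regulator, did not pass and had 0 to 28 counts in any library. In Plekhg5+/+ SOD1-G93A against Plekhg5+/+ mice 6 of the 36 passed the adjusted test (edgeR), all higher, beside the 2.47% of all genes above. Itgax, Itgb2 and Itgam encode the subunits of the complement receptors CR3 and CR4, which bind cleaved C3 on phagocytes, and all of them rose. Itgax had 1.17, 0.928 and 0.628 CPM in Plekhg5+/+ and 39.0, 9.47 and 5.77 in Plekhg5+/+ SOD1-G93A, a log2 fold change of 4.31 (SE 0.698). Itgb2 rose by 1.67 (SE 0.282) and Itgam by 1.06 (SE 0.174) on the log2 scale. The other 3 were C4a (1.43), which shares reads with C4b, Masp1 (0.67), a protease of the lectin pathway, and Clu (0.61), a regulator of the terminal complex, with 684, 598 and 603 CPM in Plekhg5+/+ and 1211, 827 and 841 in Plekhg5+/+ SOD1-G93A. Without library 1 of Plekhg5+/+ SOD1-G93A the log2 fold changes were 3.06 for Itgax, 1.19 for Itgb2, 0.80 for Itgam and 1.04 for C4a, which passed. Those of Masp1, 0.59 (adjusted p = 0.0793, edgeR), and Clu, 0.41 (adjusted p = 0.0529, edgeR), did not. Colec11, a recognition molecule of the lectin pathway, then passed at 1.03 (adjusted p = 0.0475, edgeR). Colec11 had 16 to 19 reads per Plekhg5+/+ library, and 19, 32 and 38 in Plekhg5+/+ SOD1-G93A libraries 1, 2 and 3. Without Plekhg5+/+ library 1 or 2, 0 of the 36 passed.

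By role, 2 of 12 measured genes of the classical and lectin pathway passed, 0 of 3 of the alternative pathway, 0 of 2 of the terminal pathway, 3 of 6 receptors and 1 of 13 regulators. The median log2 fold change was 0.58, -0.62, 0.35, 0.69 and -0.01 in these classes, and 0.20 over the 36 genes. The lowest was Cfb, of the alternative pathway, at -0.66 (SE 0.664), which did not pass. In Plekhg5-/- SOD1-G93A against Plekhg5+/+ SOD1-G93A mice edgeR called 0 of the 36, against 0.0347% of all genes. An unadjusted p under 0.05 was found in 11, 7 lower and 4 higher, against 8.64% of all genes. These 11 ran from Itgax at -2.14 (SE 0.592) to Cfi, which cleaves C3b, at 1.02 (SE 0.420). Itgax and Cfi were -0.89 and 1.11 without library 1 of Plekhg5+/+ SOD1-G93A. Cfi had few reads, 4 to 6 per Plekhg5+/+ SOD1-G93A library and 8 to 17 per Plekhg5-/- SOD1-G93A library. limma voom called 0, DESeq2 without a prior 1 (Itgb2) and DESeq2 with a prior 2 (Itgb2 and Itgax), all lower. Itgax had 4.61, 4.72 and 2.94 CPM in Plekhg5-/- SOD1-G93A mice, below the 3 Plekhg5+/+ SOD1-G93A libraries and above the 6 libraries without the transgene.

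In the remaining comparisons edgeR called 0 of the 36. In Plekhg5-/- against Plekhg5+/+ mice 5 had an unadjusted p under 0.05, 4 higher and 1 lower, against 5.32% of all genes. The highest of these was Masp2 at 1.35 (SE 0.334, adjusted p = 0.695, edgeR). Masp2 had 0.971, 1.46 and 1.01 CPM in Plekhg5+/+ and 2.15, 3.39 and 3.23 in Plekhg5-/- libraries. It starts at base 148594622 of chromosome 4, and Plekhg5 at 152072433. The estimates of all 36 ran from Cfp at -0.53 to Cfd, factor D, at 3.12 (SE 1.64, unadjusted p = 0.0912, edgeR), which was not among the 5. Cfd had 25.0 CPM in Plekhg5-/- library 2 and 0.0308 to 2.07 in the other 11, so that its estimates rest on that library. In Plekhg5-/- SOD1-G93A against Plekhg5-/- mice 6 had an unadjusted p under 0.05, against 5.38% of all genes, from Cfd at -4.74 (SE 1.89) to Itgax at 1.66 (SE 0.678). DESeq2, with and without a prior, called 0 of the 36 in Plekhg5-/- against Plekhg5+/+ mice. For the interaction 10 had an unadjusted p under 0.05, against 9.05% of all genes. The estimates of all 36 ran from Cfd at -4.66 (unadjusted p = 0.116, edgeR) to Cfb at 1.2 (unadjusted p = 0.221, edgeR), neither among the 10. Without library 1 of Plekhg5+/+ SOD1-G93A these estimates were -4.90 and 1.43. For the interaction DESeq2 called C4a without a prior and C4a and Itgax with it. limma voom called 0 in these 3 comparisons.

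**Figure D5:**
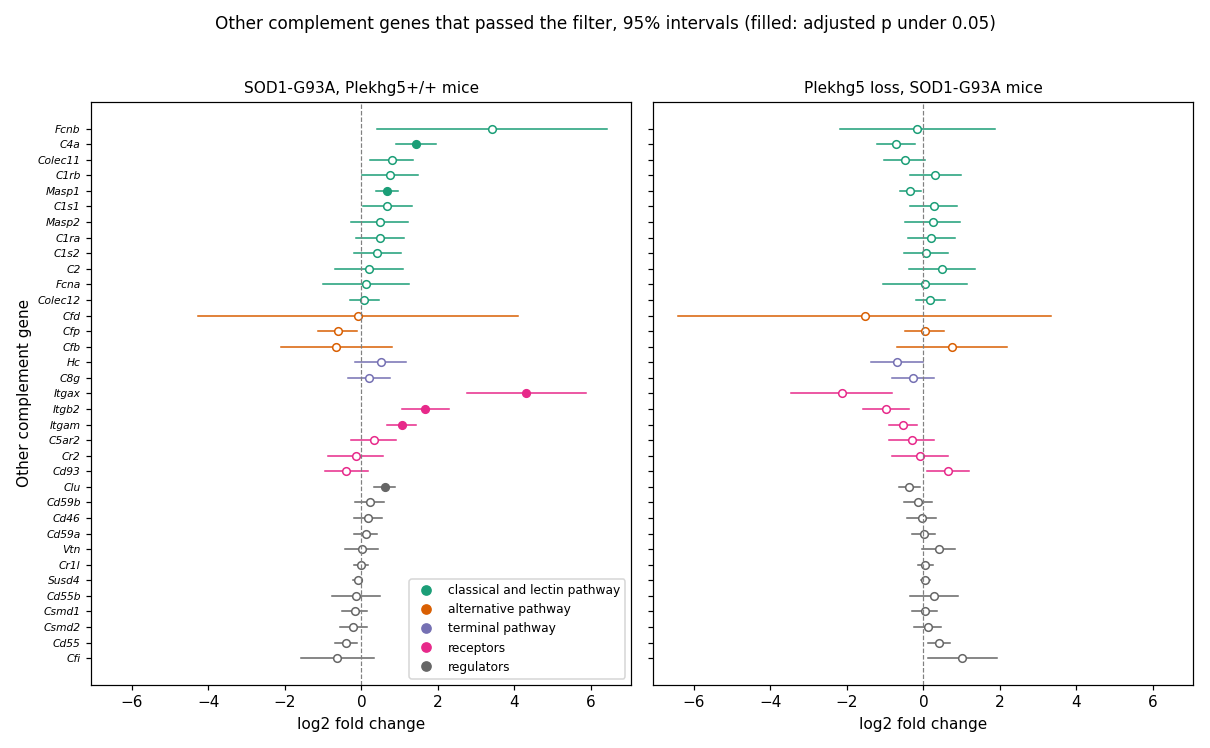
Log2 fold changes with 95% intervals (edgeR) of 35 of the 36 other complement genes that passed the filter, coloured by class and sorted within class by the left panel; left, Plekhg5+/+ SOD1-G93A against Plekhg5+/+, right, Plekhg5-/- SOD1-G93A against Plekhg5+/+ SOD1-G93A. Filled points (adjusted p under 0.05) are C4a, Masp1, Itgax, Itgb2, Itgam and Clu at left, and there are none at right.

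The genes most like each complement gene over the 12 libraries, by Pearson correlation of log2 CPM, are a description of shared pattern, since all share libraries and genotypes. C1qa was near to Ctss (1.00) and Ctsz (0.99), lysosomal proteases. C1qb was nearest to Ctss (0.99), Dhrs1 (0.98) and Ctsz (0.98), and C1qc to Ctsz, Ctss and Laptm5 (0.99 each). C3 was nearest to Cd53 (0.98), S100a6 (0.97) and Irf5 (0.97), C4b to C4a (1.00), Slc11a1 (0.98) and Lgals3 (0.98), and C3ar1 to Fcrls (0.99), Apobec1 (0.99) and Bcl2a1d (0.98). C5ar1, with few reads, was nearest to Ifngr1 (0.94), Lrrc39 (0.93) and Tm4sf1 (0.93). Serping1 was nearest to Fgl2 (0.95), C1s1 (0.95), a protease that its product inhibits, and Ecm1 (0.93). Among themselves the C1q chains had correlations of 0.99, those of C1q, C3, C4b and C3ar1 were 0.92 to 0.99, those of C5ar1 with the other genes but Serping1 were 0.76 to 0.83, and those of Serping1 were 0.37 to 0.56. Without library 1 of Plekhg5+/+ SOD1-G93A the C1q chains remained at 0.98, and those of C1q, C3, C4b and C3ar1 were 0.84 to 0.98. C5ar1 with the other genes but Serping1 then had 0.52 to 0.70, and Serping1 had 0.28 to 0.54.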

How the data were processed

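RNA of whole spinal cord was sequenced from 12 mice, 3 per genotype, as stranded single-end reads of 75 bases. The authors trimmed reads with Cutadapt 2.4, mapped them with STAR 2.7.2b to GRCm38.p6 plus the human SOD1 cDNA, and counted exons per gene with featureCounts 1.6.4 (version numbers as in the submitters' processing notes). Reads with several matches were counted as fractions, so the values the authors deposited are estimated counts (expected counts), without normalization, and 0 columns lacked a sample. Paralogs such as C4a and C4b can therefore share reads.

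Counts were rounded, filtered with filterByExpr, normalized with TMM and fitted over the 4 genotypes together with edgeR 4.0.16 (robust quasi-likelihood, R 4.3.3), with Benjamini-Hochberg adjustment over 20155 genes at a threshold of 0.05. Log2 CPM used a prior count of 2. For ratios and shares the exact permutation test was two-sided (scipy 1.17.1). The fit was tested on simulated data. The genes and lists were chosen with earlier results of these data known. The text names all 8 genes, other complement genes that passed or were highest or lowest in a comparison, and the 3 genes most correlated with each of the 8. Colec11 and Masp2 were named after their values were seen. Some genes that this rule or another tool picked are not reported here. Alternatives were DESeq2 1.42.0, limma 3.58.1 voom with quality weights, other filters and scalings, only 2 genotypes, Y-linked transcripts as a covariate, the replicate number as a block, and each library left out. Only libraries with Y-linked transcripts, and summed C4a and C4b counts, were added after seeing the data. Replicate libraries differed by more than counting noise (chi-square per degree of freedom 5.67 to 27.4), and depth was 30415643 to 38743628 counts per library.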

Additional observations from a re-analysis of the deposited data

How the results depend on the processing

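In Plekhg5+/+ SOD1-G93A against Plekhg5+/+ mice, C1qa, C1qb, C1qc, C3, C4b, C3ar1, C5ar1 and Serping1 had log2 fold changes above 0 under the alternatives run for them, but the number called did not hold. It was 0 in the 8 genes and 0 in the other complement genes with only the 2 genotypes compared, 3 of the 8 with no filter on low counts, and 4 of the 8 in libraries with Y-linked transcripts, where C1qb and C3ar1 had an adjusted p of 0.0538 (edgeR). With each library left out in turn it ran from 0 to 6 in the 8 genes and from 0 to 7 in the other complement genes. The cause of these changes was not tested. In Plekhg5-/- SOD1-G93A against Plekhg5+/+ SOD1-G93A mice DESeq2 with a prior called 1 of the 8 genes (C3ar1) and 2 other complement genes, and DESeq2 without a prior 1 other complement gene. In Plekhg5-/- SOD1-G93A against Plekhg5-/- mice DESeq2 with a prior, DESeq2 without a prior and the fit of only 2 genotypes each called 1 other complement gene, and for the interaction DESeq2 called 2 with the prior and 1 without.

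Signs changed in these differences, which no setting run here called. In Plekhg5-/- against Plekhg5+/+ mice C5ar1 was 0.40 with voom, 0.04 with the replicate block and 0.04 with the Y-linked covariate, Serping1 was 0.10 with voom and C3ar1 0.01 with the Y-linked covariate. With each library left out, C5ar1 ran from -0.20 to 0.38 and Serping1 from -0.52 to 0.06. Serping1 in Plekhg5-/- SOD1-G93A against Plekhg5+/+ SOD1-G93A mice was -0.48 in libraries with Y-linked transcripts only. Of the Plekhg5-/- SOD1-G93A libraries this setting left library 1 alone, with 19.5 CPM of Serping1.

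The replicate numbers were not treated as pairs, since no label states a shared litter. The correlations of same-numbered libraries ran from -0.165 to 0.318, and whether the numbers pair the mice was not tested. With the replicate block 6 of the 8 genes were called in Plekhg5+/+ SOD1-G93A against Plekhg5+/+ mice, as without it, and 0 in the other comparisons. Over all genes, Plekhg5+/+ SOD1-G93A against Plekhg5+/+ mice had 631 calls with the block and 498 without it. C5ar1 rests on 28.5 to 90 reads per library.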
